A study of Mus musculus with 8 samples.

Results

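The genes described here build the extracellular matrix of the mouse intestine: fibrillar and other collagens, basement membrane proteins, small proteoglycans, elastic fibre proteins, lysyl oxidases, adhesive and matricellular proteins, and IGF-binding proteins and tissue inhibitors of metalloproteinases. The list holds 40 genes, and a gene was measured with the probe sets that the platform annotation assigns to it alone. Of the 40 genes, 38 had such a probe set, 88 probe sets in all, among 18193 genes named in the same way on the array. Each gene is represented by its probe set of highest mean signal, and Fbn1 and Loxl2 are not analysed here. All 38 genes were among the 14023 that lay above a floor of 64.1 signal units, the 40th percentile of all values, on at least 2 arrays. On all 8 arrays, 33 of them lay above that floor. Col15a1, Fbln2, Lox, Loxl1 and Thbs2 dropped below it on at least 1 array. A difference between a pair of arrays is a lower limit of its size where either lay below the floor. An average over pairs that differ in direction need not be a lower limit. Fbln2 in small-intestinal tumours against non-tumour tissue is such a case, with -1.23 in ACKR2-intact and 0.08 in ACKR2-/- mice.

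The data are 8 Affymetrix arrays of C57BL/6 mice aged 110 days, each hybridised with RNA pooled within 1 genotype and tissue. Colon and small intestine of wild-type (WT) mice and of ACKR2-/- mice, both without the ApcMin allele, gave 4 arrays of non-tumour tissue. Spontaneous tumours of the colon and of the small intestine (ileum) of ApcMin/+ mice and of ACKR2-/-ApcMin/+ mice gave the other 4. ACKR2, also named D6, is an atypical chemokine receptor that takes up and degrades inflammatory CC chemokines, and ApcMin is a truncating allele of the tumour suppressor Apc that makes heterozygous mice grow intestinal adenomas. The tumour comparison therefore sets tumours of ApcMin/+ mice against tissue of mice without that allele, and the labels name the ileum for the tumours only. The number of animals in a pool is not given in the sources used here.

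No group had a second array, so the spread between animals was not measured. All 8 arrays entered 1 limma model on log2 signal, with a level for each tissue and tumour status and an ACKR2 difference for non-tumour tissue and for tumours that colon and small intestine share. The standard error (SE) printed beside a log2 difference is the moderated one of limma. It draws on how unequal the ACKR2 difference was in the 2 tissues, over non-tumour tissue and tumours together, on 2 residual degrees of freedom. It is also moderated toward the spread of all genes tested, with 4.16 prior degrees of freedom. A gene passed where the two-sided p, adjusted by Benjamini-Hochberg over the 14023 genes, was under 0.05. When any 1 of the 8 arrays was left out, 1 residual degree of freedom remained, and 0 of the 38 genes and 0 to 66 of all 14023 passed in a comparison. When genes of low signal were kept, 0 of the 38 and 0 to 253 of 18193 passed. The counts of genes that passed were thus smaller under these settings for the 38 and over all genes, and those given here come from all 8 arrays with the filter on low signal.

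Several measures of the arrays moved with the groups. The median signal was 115.5 to 133.1 on the 4 arrays with intact ACKR2 and 85.5 to 103.1 on the 4 ACKR2-/- arrays. The ratio of the 3' to the 5' control probe set of Actb was 1.13 to 1.17 on the 4 arrays with intact ACKR2 and 1.28 to 1.39 on the 4 ACKR2-/- arrays. The same ratio of Gapdh did not separate them, at 0.77 to 0.95 with intact ACKR2 and 0.74 to 0.87 on ACKR2-/- arrays. The Y-linked gene Eif2s3y read 2.92 and 2.66 on the WT arrays and 888 to 1501 elsewhere, and Xist, transcribed from the inactive X chromosome of females, read 77.9 and 126.9 on the ACKR2-/-ApcMin/+ arrays and 2818 to 9809 elsewhere. Sex markers therefore differ between the pools in both the ACKR2 and the tumour comparison, and their part in any result below cannot be told apart from genotype or tumour status. The tissue labels were checked against markers, in non-tumour tissue and in tumours alike. All 10 enterocyte genes of the small intestine that were tested fell in colon against small intestine, and 6 of 9 colonocyte genes rose. The summed colonocyte signal in small intestine was 34547 in WT, 16746 in ACKR2-/-, 6575 in ApcMin/+ tumours and 14549 in ACKR2-/-ApcMin/+ tumours. The lowest colonocyte difference (log2) from WT small intestine was -8.20, both in ACKR2-/- small intestine and in ApcMin/+ tumours. WT small intestine thus held colonocyte signal, and its source was not tested.

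Fibrillar collagens (types I, III and V) assemble into the fibres that give the gut wall its strength, lysyl oxidases crosslink those fibres and elastin, and small leucine-rich proteoglycans bind to the fibrils and set their width. Basement membranes, which lie under the epithelium and around vessels and muscle cells, are sheets of type IV collagen and laminin joined by nidogen. Fibroblasts, smooth muscle and endothelium make most of this matrix in the intestine, and matricellular proteins such as thrombospondins, tenascin and periostin alter how cells attach to it.

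Sequences upstream of the transcription start are shown for the fibrillar collagens, whose 5 genes were lower in ACKR2-/- tissue in all 4 pairs described below. RefSeq promoter windows on build GRCm38.p6 were matched for 25 of the 40 listed genes, among them Col1a2, Col3a1 and Col5a1, and not for Col1a1 or Col5a2. Each line gives the 250 bases before the start, 5′ to 3′ on the gene's strand, and capitals mark the motifs GGGCGG (a GC box, or CCGCCC on the other strand), CCAAT (or ATTGG) and TATAAA (or TTTATA), none of which overlapped another here.
Col1a2, chr6:4505368-4505617, plus strand: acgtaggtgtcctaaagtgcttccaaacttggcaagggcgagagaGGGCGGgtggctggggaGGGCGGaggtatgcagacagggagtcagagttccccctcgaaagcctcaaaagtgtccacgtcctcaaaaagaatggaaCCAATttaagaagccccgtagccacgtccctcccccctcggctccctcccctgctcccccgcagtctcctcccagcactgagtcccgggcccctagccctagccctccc
Col3a1, chr1:45311288-45311537, plus strand: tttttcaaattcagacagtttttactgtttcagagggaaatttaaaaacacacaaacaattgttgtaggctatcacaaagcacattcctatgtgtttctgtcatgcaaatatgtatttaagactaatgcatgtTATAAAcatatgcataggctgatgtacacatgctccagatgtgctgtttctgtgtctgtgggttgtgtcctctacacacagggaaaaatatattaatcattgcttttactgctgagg
Col5a1, chr2:27886175-27886424, plus strand: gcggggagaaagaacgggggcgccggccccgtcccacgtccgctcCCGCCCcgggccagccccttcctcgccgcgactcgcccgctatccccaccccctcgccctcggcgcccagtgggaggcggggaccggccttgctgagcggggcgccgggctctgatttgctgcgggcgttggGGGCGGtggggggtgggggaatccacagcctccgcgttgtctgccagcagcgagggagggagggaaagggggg
The Col1a2 window held 2 GC boxes and 1 CCAAT in 62.0% G and C. The Col3a1 window held a TATAAA and no GC box in 35.2% G and C. The Col5a1 window held 2 GC boxes in 76.4% G and C. The 3 windows thus differ in base composition and in the motifs they hold. Over all 32851 RefSeq windows of this length, 32.74% held GGGCGG, 33.85% held CCAAT and 12.37% held TATAAA on either strand. Of 31 windows of the 25 genes, 17 (54.84%) held GGGCGG, 9 (29.03%) held CCAAT and 5 (16.13%) held TATAAA.

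Across the 8 arrays the 38 genes varied by 3.10-fold to 43.6-fold between their lowest and highest array, with a median of 8.89-fold. The highest array was that of ApcMin/+ colon tumours for 17 genes, WT colon for 13 and ACKR2-/- colon for 6. The lowest array was that of ACKR2-/-ApcMin/+ small-intestinal tumours for 29 genes and ACKR2-/- small intestine for 7. Matrix signal was therefore highest on colon arrays with the single exception of Fbln1, a fibulin of basement membranes and elastic fibres, which was highest in WT small intestine.

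**Figure D1:**
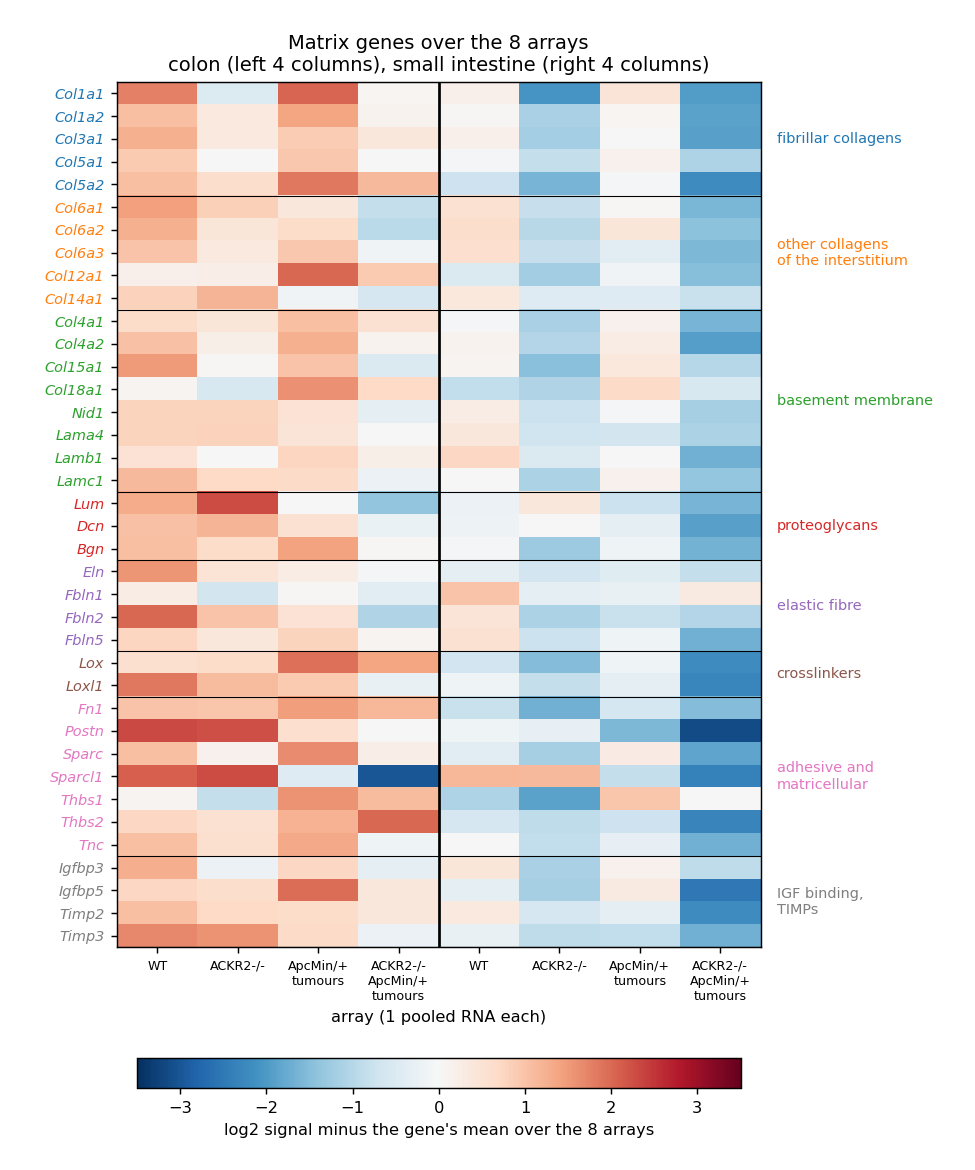
Each row is 1 of 38 matrix genes and each column 1 array of pooled RNA; colour gives the log2 signal minus the gene's mean over the 8 arrays, with rows ordered by role. Red lies mainly in the 4 colon columns, and the last column, ACKR2-/-ApcMin/+ small-intestinal tumours, is the lowest for 29 genes.

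Matrix genes were higher in colon than in small intestine, both in non-tumour tissue and in tumours. In non-tumour tissue 29 of 38 genes rose in colon and 0 fell, where over all 14023 genes 13.0% rose and 8.4% fell. The median difference was 1.24 (log2) for the 38 genes and 0.11 for all genes. In tumours 24 rose and 0 fell, against 5.76% and 7.36% of all genes, with medians of 1.38 and 0.07. The number of genes at least 2-fold higher in colon was 21 of 38 in WT mice (9.64% of all genes), 33 in ACKR2-/- mice (12.9%), 18 in tumours of ApcMin/+ mice (4.18%) and 27 in tumours of ACKR2-/-ApcMin/+ mice (10.5%). In all 4 pairs of arrays that share genotype and tumour status, 34 of 38 genes had the higher signal in colon (25.5% of all genes), and 13 of them by at least 2-fold in every pair (1.49% of all genes). Of the 38 genes, 14 had their lowest colon array above their highest small-intestinal array, which held for 8.99% of all genes. With each array centred on its median, the median of all genes in non-tumour tissue moved from 0.11 to -0.11, 9.24% of all genes rose and 12.6% fell, and 24 of the 29 matrix genes still passed.

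All 5 fibrillar collagens rose in colon in both settings. Signals are given throughout in the order WT, ACKR2-/-, ApcMin/+ tumours and ACKR2-/-ApcMin/+ tumours. Col1a1, the main chain of type I collagen, read 1588, 338, 1934 and 488 in colon and 525, 112, 642 and 120.3 in small intestine. Each colon array lay above the small-intestinal array of the same genotype, by 1.60 ± 0.22 (adjusted p = 0.00616) in non-tumour tissue and 1.81 ± 0.22 (adjusted p = 0.006) in tumours. Col1a2, its partner chain, read 4981, 3032, 6232 and 2629.9 in colon and 2460.1, 1080.4, 2514 and 648 in small intestine. Col3a1, the type III chain that co-assembles with type I, read 18248, 9620.4, 14234 and 10115 in colon and 8669.5, 3371, 7761 and 2058 in small intestine, with all 4 colon arrays above all 4 small-intestinal arrays. Col5a2, a type V chain that helps start fibrils, read 2075, 1525, 3578 and 2192 in colon and 609, 322, 959.9 and 219 in small intestine. Its difference was the widest of the 5, at 2.01 ± 0.34, adjusted p = 0.011 in non-tumour tissue and 2.61 ± 0.34, adjusted p = 0.00683 in tumours. Col5a1 differed least, by 0.90 ± 0.23 and 0.95 ± 0.23.

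All 5 collagens that decorate fibrils or form beaded filaments had positive differences in both settings. In non-tumour tissue 4 of 5 rose in colon, led by Col6a1 (1.26 ± 0.23, adjusted p = 0.0137) of the type VI microfibrils. In tumours Col12a1, a fibril-associated collagen, rose by 2.26 ± 0.29 (adjusted p = 0.00631) and Col6a3 by 1.39 ± 0.21 (adjusted p = 0.0107). The other type VI chains did not pass in tumours: Col6a1 differed by 0.55 ± 0.23 (adjusted p = 0.165) and Col6a2 by 0.36 ± 0.22 (adjusted p = 0.325). Among the 8 basement membrane genes 4 rose in each setting. In non-tumour tissue these included Lamc1 (1.46 ± 0.27), the gamma chain of most laminins, and Col15a1 (at least 1.45 ± 0.24). In tumours they included Col4a1 (1.53 ± 0.33), Col4a2 (1.51 ± 0.27) and Lamb1 (1.32 ± 0.31). Lamb1, a laminin beta chain, read 1249, 869, 1497 and 1016 in colon and 1463, 628, 884 and 278 in small intestine. WT small intestine thus lay above WT colon, while ACKR2-/- tissue and the tumours of both genotypes ran the other way.

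The small proteoglycans and the crosslinkers were higher in colon as well. Lumican (Lum), decorin (Dcn) and biglycan (Bgn) all rose in non-tumour colon, by 1.71 ± 0.20, 1.20 ± 0.21 and 1.52 ± 0.22. In tumours Dcn and Bgn rose, by 1.27 ± 0.21 and 1.63 ± 0.22, and Lum differed by 0.50 ± 0.20 (adjusted p = 0.153). Lox, the lysyl oxidase that starts collagen crosslinks, read 431, 461, 1110.1 and 764 in colon and 186, 104, 267 and 48.5 in small intestine. Every colon array lay above every small-intestinal array, and the difference was 1.68 ± 0.43 (adjusted p = 0.0404) in non-tumour tissue and at least 2.81 ± 0.431 (adjusted p = 0.0114) in tumours. Loxl1, which acts on elastin, rose by 1.95 ± 0.29 and at least 1.62 ± 0.29. Elastin itself (Eln) and Fbln2 rose in non-tumour colon, by 1.51 ± 0.28 and at least 1.83 ± 0.36, and no elastic fibre gene passed in tumours.

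Of the 7 adhesive and matricellular genes 6 rose in each setting. Fibronectin (Fn1) read 7826, 7750.2, 10960 and 8895 in colon and 2316, 1229.7, 2561 and 1376 in small intestine. Periostin (Postn), which binds collagen and aids its crosslinking, read 10551, 10096, 3179 and 2089 in colon and 1891, 1739, 718 and 242 in small intestine. The tissues did not overlap for either gene, and the differences were 2.21 ± 0.25, adjusted p = 0.00327 and 2.51 ± 0.24, adjusted p = 0.00167 in non-tumour tissue. Thbs2, a thrombospondin, read 524, 459, 728 and 1276 in colon and 212, 172, 189 and 57.5 in small intestine. Its difference in tumours was the widest of the 38 genes, at least 3.13 ± 0.53, adjusted p = 0.0158, with the highest signal in ACKR2-/-ApcMin/+ colon tumours. Sparcl1, a relative of Sparc, rose in non-tumour colon by 1.05 ± 0.25 and differed by -0.12 ± 0.25 (adjusted p = 0.786) in tumours. Timp3, an inhibitor of metalloproteinases that is held in the matrix, rose by 2.20 ± 0.19 and 1.51 ± 0.19, and Igfbp5 by 1.40 ± 0.32 and 2.27 ± 0.32. Fbln1 had negative values in both settings, -0.54 ± 0.26 and -0.22 ± 0.26, and did not pass (adjusted p = 0.199 and 0.622).

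Markers of cells that make matrix were read in the same comparison. Of 12 fibroblast markers tested, 8 rose in non-tumour colon (median 1.22) and 4 in colon tumours (median 0.49). The summed signal of the fibroblast list ran from 13445 to 19238 on colon arrays and from 3813 to 9530 on small-intestinal arrays. Of 10 smooth muscle markers, 4 rose in non-tumour colon (median 1.11), and in tumours 0 rose and 1 fell (median 0.14). Of 11 endothelial markers 1 rose in non-tumour colon (median 0.70) and 0 in tumours (median 0.38), and of 5 pericyte markers 0 rose in either. In whole-tissue RNA, fewer cells of a type and less RNA per cell cannot be told apart, and the part of these cells in the matrix differences was not tested.

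**Figure D2:**
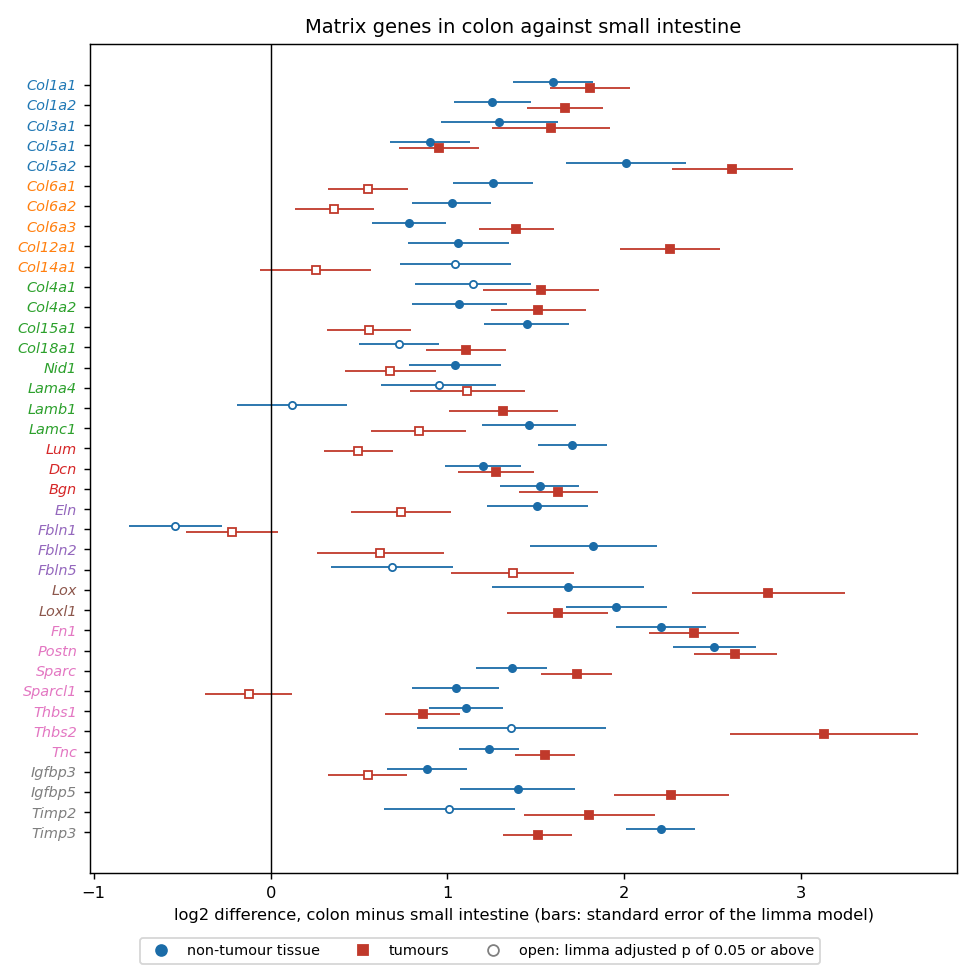
Points give the log2 difference, colon minus small intestine, of each of 38 matrix genes in non-tumour tissue (circles) and in tumours (squares), with bars for the SE of the limma model; open symbols had an adjusted p of 0.05 or above. Nearly all points lie to the right of 0: 37 of 38 in non-tumour tissue and 36 of 38 in tumours.

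Few matrix genes passed in tumours against non-tumour tissue in small intestine, and in colon genes passed in both directions. In colon 3 genes rose and 10 fell, against 11.0% and 12.6% of all genes, and the median difference was -0.19 for the 38 genes and 0.00 for all genes. In small intestine 1 rose and 3 fell, against 2.77% and 1.2% of all genes, with medians of -0.35 and 0.04. Negative differences were found for 22 of 38 genes in colon (48.9% of all genes) and for 31 of 38 in small intestine (44.0% of all genes). With arrays centred on the median, 3.01% of all genes rose and 2.55% fell in small intestine, and 6 of the 38 fell. The medians of the 38 genes depended on single arrays. In colon the median was -0.47 without the WT array, 0.04 without the ACKR2-/- array, -0.12 without the ApcMin/+ tumour array and -0.41 without the ACKR2-/-ApcMin/+ tumour array. In small intestine the same omissions gave -0.12, -0.68, -0.67 and -0.11. In the 4 pairs of tumour and non-tumour arrays with the same tissue and ACKR2 genotype, 14 of 38 genes were lower in tumours each time, against 15.8% of all genes.

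Thrombospondin 1 (Thbs1), which activates latent TGF-beta and limits vessel growth, was the matrix gene that rose in tumours of both tissues. It read 696, 363, 1947 and 1405 in colon and 309.9, 177, 1284 and 648 in small intestine. Each tumour array lay above the non-tumour array of the same tissue and ACKR2 genotype by at least 2-fold, as 1.16% of all genes did, and the rise was 1.72 ± 0.21, adjusted p = 0.00514 in colon and 1.96 ± 0.21, adjusted p = 0.00931 in small intestine. Col18a1, the basement membrane collagen from which endostatin is cut, read 605, 385, 1731 and 932 in colon and 311, 274, 906 and 384 in small intestine. It rose in colon tumours by 1.40 ± 0.22 (adjusted p = 0.01), and in small intestine the difference was 1.02 ± 0.22 (adjusted p = 0.069). Col12a1 read 369.8, 385, 1313 and 613 in colon and 232, 141, 301 and 117 in small intestine. It rose in colon tumours by 1.25 ± 0.29 (adjusted p = 0.0273) and differed by 0.05 ± 0.29 (adjusted p = 0.962) in small intestine. Lox had a difference of 1.05 ± 0.43 in colon (adjusted p = 0.134) and did not pass.

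The 5 fibrillar collagens did not pass in either tissue. Their differences ran from -0.14 (Col3a1) to 0.65 (Col5a2) in colon and from -0.44 (Col3a1) to 0.20 (Col1a1) in small intestine. Col1a1 was nevertheless higher in the tumour array of all 4 pairs, with Col18a1, Fn1 and Thbs1; by this count 4 of 38 genes were higher in all 4 pairs, against 19.2% of all genes. The type IV chains Col4a1 and Col4a2 differed by 0.26 and 0.07 in colon and by -0.13 and -0.38 in small intestine and did not pass.

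Genes that fell in tumours were led by Sparcl1, Lum and Postn, in both tissues. Sparcl1 read 8141, 9339, 1388 and 238 in colon and 4243, 4200.1, 1069 and 368 in small intestine. All 4 tumour arrays lay below all 4 non-tumour arrays, which held for 1 of the 38 genes and 4.22% of all genes, and it fell by 3.92 ± 0.25 in colon (adjusted p = 0.00108) and 2.75 ± 0.25 in small intestine (adjusted p = 0.00618). The signals of Postn, given above, were at least 2-fold lower in the tumour array of each pair, as were those of Sparcl1 and 0.813% of all genes. It fell by 2.002 ± 0.236 in colon (adjusted p = 0.0047) and 2.12 ± 0.24 in small intestine (adjusted p = 0.0108). Lum read 2676, 5246, 1077 and 419.6 in colon and 932, 1416, 642 and 354 in small intestine. Its tumour arrays lay below the non-tumour arrays of the same tissue, with a fall of 2.48 ± 0.20 in colon (adjusted p = 0.00184) and 1.27 ± 0.20 in small intestine (adjusted p = 0.0265). Dcn read 13340, 14940, 9489 and 5574 in colon and 5812, 6486, 5160.4 and 1751 in small intestine. It fell in colon by 0.96 ± 0.21 (adjusted p = 0.0255), and in small intestine its difference was -1.03 ± 0.21 (adjusted p = 0.0579). Within small intestine, Lum, Dcn, Postn and Sparcl1 were the 4 of 38 genes whose tumour arrays both lay below both non-tumour arrays (14.9% of all genes), and Col18a1 and Thbs1 the 2 whose tumour arrays both lay above (23.2% of all genes). Bgn, the remaining proteoglycan, differed by -0.12 ± 0.22 and -0.22 ± 0.22 and did not pass.

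The other genes that fell in colon did not pass in small intestine, and the test of the difference between the tissues passed for none of them. Among the type VI and fibril-associated collagens these were Col6a1, Col6a2 and Col14a1. Col6a1 read 3052, 2004, 1486 and 634 in colon and 1647, 651, 1173 and 375 in small intestine, and fell in colon by 1.35 ± 0.23 (adjusted p = 0.0114). Col6a2 fell by 0.995 ± 0.223 and Col14a1, a fibril-associated collagen, by 1.35 ± 0.31. Fbln2, an elastic fibre and basement membrane protein, fell by 1.78 ± 0.36 (adjusted p = 0.0194) and Loxl1 by 1.14 ± 0.29 (adjusted p = 0.0348). Timp3 read 2906, 2725, 1459 and 792 in colon and 761, 489.8, 505 and 283 in small intestine, and fell in colon by 1.39 ± 0.19 (adjusted p = 0.00688). Eln (-0.90 ± 0.28, adjusted p = 0.0684) and Nid1 (-0.71 ± 0.26, adjusted p = 0.0998) had lower signals in colon tumours and did not pass.

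The test of the tumour difference in colon against that in small intestine passed for 0 of the 38 genes in limma, against 0.735% of all genes in the positive and 1.52% in the negative direction. At an unadjusted p under 0.05 it held for 6 of 38 genes and 2663 of 14023. The smallest adjusted p was that of Lum (-1.21 ± 0.28, adjusted p = 0.0911). Thbs2 had the widest value, at least 1.77 ± 0.75, adjusted p = 0.277. Its tumour difference was 0.97 ± 0.53 in colon and -0.79 ± 0.53 in small intestine, the latter a lower limit of the size.

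Smooth muscle markers fell with the tumours. All 10 markers fell in colon (median -3.58) and 7 of 10 in small intestine (median -2.21). The myosin heavy chain Myh11 read 16977, 14454, 2523 and 125 in colon and 7132, 6320.4, 1557 and 589 in small intestine. Its signal was lower on every tumour array than on every non-tumour array and lowest in ACKR2-/-ApcMin/+ colon tumours. Of 12 fibroblast markers 1 rose and 7 fell in colon tumours (median -1.23), and 0 rose and 2 fell in small-intestinal tumours (median -0.30). Pdgfra, which marks fibroblasts, read 2247, 1694, 2455 and 1211 in colon and 1581, 659, 1859.5 and 448 in small intestine, and differed between tumour and non-tumour tissue by -0.18 ± 0.31 in colon and -0.16 ± 0.31 in small intestine. The part of the muscle and fibroblast markers in the matrix differences was not tested.

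**Figure D3:**
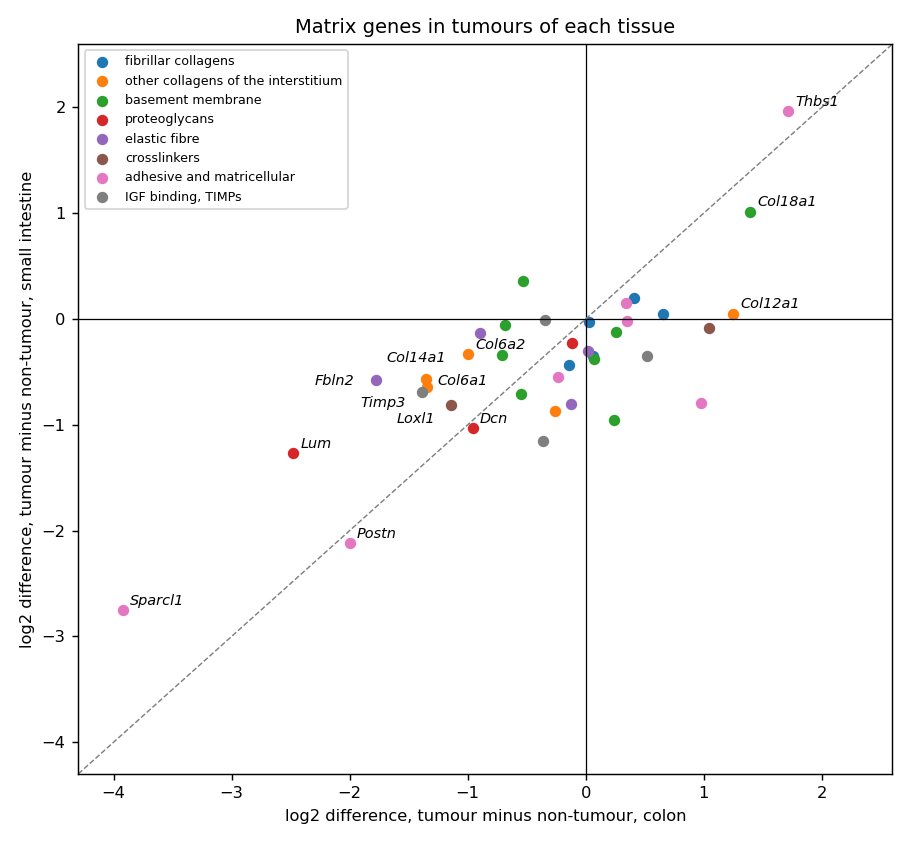
Each point is 1 of 38 matrix genes; the x axis gives the log2 difference tumour minus non-tumour in colon, the y axis that in small intestine, the dashed line marks equal differences, and genes that passed in at least 1 tissue are named. Sparcl1 (-3.92 and -2.75), Lum (-2.48 and -1.27) and Postn (-2.002 and -2.12) lie at the lower left and Thbs1 (1.72 and 1.96) at the upper right.

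**Figure D4:**
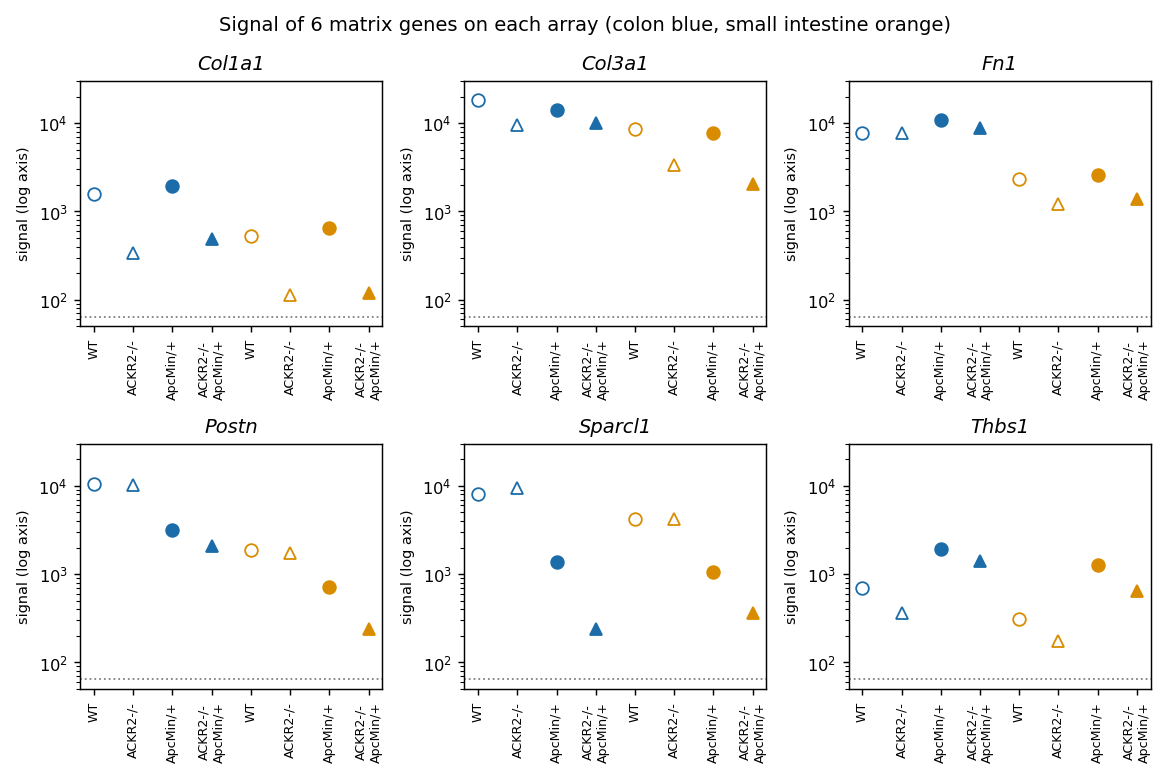
Signal of 6 matrix genes on each of the 8 arrays on a log axis, colon in blue and small intestine in orange; circles are ACKR2 intact and triangles ACKR2-/-, open symbols are non-tumour tissue and filled symbols tumours, and the dotted line is the floor of 64.1. Col1a1 separates triangles from circles within each tissue, Fn1 separates the tissues, Postn and Sparcl1 are lower in tumours, and Thbs1 is higher in tumours.

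Matrix genes had lower signals in ACKR2-/- tissue in most pairs, and 1 of these differences passed the test. In non-tumour tissue 1 of 38 genes fell and 0 rose in limma, against 0.556% and 0.128% of all genes. With arrays centred on the median, 5 of the 38 fell and 1 rose, against 2.0039% and 2.83% of all genes. The median difference, ACKR2-/- minus ACKR2 intact, was -0.70 for the 38 genes and -0.02 for all genes, and 35 of 38 values were negative. At an unadjusted p under 0.05, 21 of 38 genes and 3478 of 14023 were counted. In tumours 0 of 38 genes passed, against 0.0357% of all genes that fell and 0.0% that rose. The median there was -1.13 against -0.03, and 37 of 38 values were negative. At an unadjusted p under 0.05, 32 of 38 genes and 2188 of 14023 were counted in tumours. Each median kept its sign when any 1 array was left out, between -0.93 and -0.47 in non-tumour tissue (-0.93 without either colon array, -0.47 without either small-intestinal array) and between -1.52 and -0.89 in tumours. A model with 1 ACKR2 difference for all 8 arrays has 3 residual degrees of freedom. It called 18 of the 38 genes and 806 of all 14023 genes, counted in either direction. All 18 matrix genes were lower, and the 806 are not split by direction here.

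The 4 pairs of arrays that differ in ACKR2 genotype within a tissue and tumour status show how the genes were spread. Of 38 genes 30 were lower in ACKR2-/- colon than in WT colon (49.0% of all genes), 5 of them by at least 2-fold (5.11% of all genes), with a median of -0.47. In small intestine 36 were lower (50.1% of all genes), 18 by at least 2-fold (6.9% of all genes), with a median of -0.93. In colon tumours 37 were lower (47.0% of all genes), 17 by at least 2-fold (4.91% of all genes), with a median of -0.89. In small-intestinal tumours 37 were lower (56.0% of all genes), 29 by at least 2-fold (4.62% of all genes), with a median of -1.52. In both tumour pairs 15 genes were lower by at least 2-fold (1.35% of all genes). In all 4 pairs 28 of 38 genes were lower (19.1% of all genes) and 0 were higher (13.4% of all genes). Col1a1, Col15a1 and Igfbp3 were lower by at least 2-fold in each of the 4 pairs, as 0.335% of all genes were.

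Those 3 genes were also the ones whose 4 ACKR2-/- arrays all lay below the 4 ACKR2-intact arrays, which held for 4.83% of all genes. Within colon 17 of 38 genes had both ACKR2-/- arrays below both ACKR2-intact arrays (15.6% of all genes), and within small intestine 31 (23.9% of all genes). Col1a1, whose signals are given above, fell in non-tumour tissue by 2.23 ± 0.22 (adjusted p = 0.0378), or 4.69-fold. In tumours it differed by -2.20 ± 0.22 (adjusted p = 0.0867). The highest of its ACKR2-/- arrays read 488 and the lowest of its ACKR2-intact arrays 525. Its 4 pair differences were -2.23 in colon, -2.23 in small intestine, -1.99 in colon tumours and -2.42 in small-intestinal tumours. Col15a1, a basement membrane collagen, read 488, 182, 347 and 123 in colon and 186, 46.3, 226 and 87 in small intestine. Its difference was -1.48 in non-tumour tissue (adjusted p = 0.0516), a lower limit of the size since ACKR2-/- small intestine lay below the floor, and -1.44 ± 0.24 in tumours (adjusted p = 0.139). Igfbp3, an IGF-binding protein that also binds matrix, read 905, 326, 617 and 296 in colon and 504, 172, 419 and 203 in small intestine. It differed by -1.51 ± 0.22 (adjusted p = 0.0516) and -1.05 ± 0.22 (adjusted p = 0.163).

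By role, the 5 fibrillar collagens were lower in ACKR2-/- tissue in each of the 4 pairs, with medians of -0.92 in colon, -1.19 in small intestine, -0.95 in colon tumours and -1.95 in small-intestinal tumours. The differences of the other fibrillar collagens in tumours were led by Col1a2 (-1.60 ± 0.22, adjusted p = 0.112) and Col5a2 (-1.42 ± 0.34, adjusted p = 0.177). The 5 beaded-filament and fibril-associated collagens were all lower in small intestine and in the tumours of both tissues, whereas in colon Col12a1 and Col14a1 differed by 0.06 and 0.38. Col6a2 was the nearest of them to passing, at -1.20 ± 0.22, adjusted p = 0.0584 in non-tumour tissue and -1.73 ± 0.22, adjusted p = 0.0902 in tumours. All 8 basement membrane genes were lower in small intestine and in the tumours of both tissues, and 6 of 8 in colon, where Nid1 and Lama4 differed by 0.01 and 0.02. Col4a2 read 2299, 1292, 2681 and 1219.9 in colon and 1224, 553, 1357 and 295 in small intestine. Its difference was -0.99 ± 0.27 in non-tumour tissue and -1.67 ± 0.27 in tumours, and that of its partner chain Col4a1 -0.64 ± 0.33 and -1.15 ± 0.33. Among the crosslinkers Loxl1 differed by -1.58 in tumours (adjusted p = 0.15), a lower limit of the size, and Lox by 0.10 in colon and -0.85 in small intestine. Sparc (-1.78 ± 0.20, adjusted p = 0.0867), a collagen-binding matricellular protein, Sparcl1 (-2.04 ± 0.25, adjusted p = 0.0867) and tenascin C (Tnc, -1.44 ± 0.17, adjusted p = 0.0867) had the smallest adjusted p values of the 38 genes in tumours together with Col1a1, and did not pass. Fn1, one of the genes highest in colon, differed by -0.01 in colon and -0.30 in colon tumours and by -0.91 and -0.90 in small intestine and its tumours. Postn differed by -0.06 and -0.12 in non-tumour tissue and by -0.61 and -1.57 in tumours. Igfbp5 read 1948, 1806, 4622 and 1560.1 in colon and 950.2, 534, 1476 and 211 in small intestine. Its value in ACKR2-/-ApcMin/+ small-intestinal tumours was the lowest of the 8, and the difference in tumours was -2.19 ± 0.32, adjusted p = 0.127.

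The small proteoglycans Lum and Dcn ran against most of the genes in non-tumour tissue, Dcn by a small amount. They were the 2 genes of the 38 with higher signals in ACKR2-/- tissue in both non-tumour pairs, a pattern of 30.2% of all genes. In the colon pair 8 of 38 genes were higher (44.8% of all genes), and Col14a1 (0.38) and Sparcl1 (0.20) exceeded Dcn there. Lum differed by 0.97 in colon and 0.60 in small intestine, and by -1.36 and -0.86 in the tumours of the same tissues. In limma its difference was 0.79 ± 0.20, adjusted p = 0.0851 in non-tumour tissue and -1.11 ± 0.20, adjusted p = 0.15 in tumours. Dcn differed by 0.16 and 0.16 in non-tumour tissue and by -0.77 and -1.56 in tumours. The test of the ACKR2 difference in tumours against non-tumour tissue passed for 0 of 38 genes in limma (0.0% of all genes in the positive and 0.00713% in the negative direction). At an unadjusted p under 0.05 it held for 8 of 38 genes and 1131 of 14023. Lum gave -1.90 ± 0.28, adjusted p = 0.493, Sparcl1 -2.13 ± 0.35, adjusted p = 0.493 and Dcn -1.32 ± 0.30, adjusted p = 0.549.

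Bgn, the remaining small proteoglycan and encoded on the X chromosome, was lower in all 4 pairs, with limma differences of -0.80 ± 0.22 in non-tumour tissue and -1.44 ± 0.22 in tumours. On the same arrays Xist differed by -1.29 ± 0.15 and -5.25 ± 0.15, so for Bgn sex and ACKR2 genotype cannot be told apart.

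In the tumour pairs 1 gene ran the other way in each tissue. Thbs2 was higher in ACKR2-/-ApcMin/+ than in ApcMin/+ colon tumours, by 0.81, and lower by at least 1.56 in small-intestinal tumours, as its signals above show. Fbln1 read 1597, 860.3, 1384 and 1022 in colon and 2663, 1088, 1134 and 1686 in small intestine. It was lower in ACKR2-/- tissue in both non-tumour pairs and in colon tumours, and higher by 0.57 in small-intestinal tumours.

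Fibroblast, endothelial and muscle markers had negative medians in both ACKR2 comparisons as well. All 11 endothelial markers had negative differences in both settings (medians -0.87 and -0.98) with 0 called, and their summed signal read 4342, 2827, 3927 and 1762 in colon and 3608, 1471, 3316 and 1239 in small intestine. Of 12 fibroblast markers tested 10 were negative in non-tumour tissue (median -0.38) and 11 in tumours (median -0.78), with 0 called. The summed signal of the 13 fibroblast markers with a probe set read 19238, 18437, 16589 and 13445 in colon and 9530, 6223, 7167 and 3813 in small intestine. The fibroblast list shares Dpt and Ddr2 with other lists used here. Pdgfra differed by -0.84 ± 0.31 (adjusted p = 0.164) in non-tumour tissue and -1.54 ± 0.31 (adjusted p = 0.155) in tumours. Smooth muscle markers had a median of -0.15 in non-tumour tissue and -1.90 in tumours, where Synm fell by 3.41 ± 0.27 (adjusted p = 0.0454), and the pericyte marker Abcc9 fell by 2.11 ± 0.17 (adjusted p = 0.0454). Epithelial markers had medians of 0.03 and 0.10, and leukocyte markers of -0.37 and 0.03. The Actb ratio was higher, and the median signal lower, on each ACKR2-/- array than on each ACKR2-intact array, whereas the Gapdh ratio overlapped between them. The part of these cell markers, of the Actb ratio and of the median signal was not tested.

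**Figure D5:**
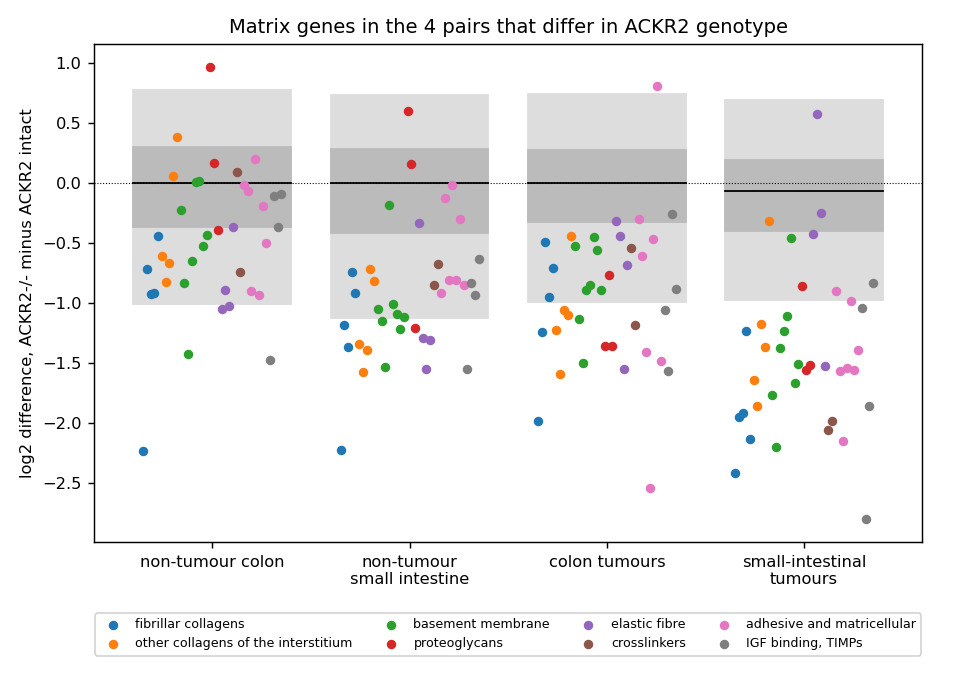
Each point is 1 of 38 matrix genes in 1 of the 4 pairs of arrays that differ in ACKR2 genotype; the y axis gives the log2 difference ACKR2-/- minus ACKR2 intact, points are coloured by role, and grey bands hold the middle 50 and 90 percent of all genes tested around their median. Between 30 and 37 of the 38 points lie below 0 in a pair, and the median of the genes goes from -0.47 in colon to -1.52 in small-intestinal tumours.

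Genes that process, extend or bind this matrix were read as further lists. Over all genes, 13.0% rose and 8.4% fell in non-tumour colon against small intestine, and 5.76% and 7.36% in tumours. In tumours against non-tumour tissue 11.0% rose and 12.6% fell in colon, and 2.77% and 1.2% in small intestine. In ACKR2-/- against ACKR2-intact arrays 0.128% rose and 0.556% fell in non-tumour tissue, and 0.0% and 0.0357% in tumours. Of 18 genes of collagen maturation, such as prolyl and lysyl hydroxylases, 6 rose and 1 fell in non-tumour colon against small intestine, led by the proteinase enhancer Pcolce2 (2.62 ± 0.31) and the lysyl hydroxylase Plod2 (1.60 ± 0.28). In colon tumours 2 of the 18 fell (12.6% of all genes), Pcolce2 by 2.67 ± 0.31 (adjusted p = 0.00447) and the prolyl hydroxylase P3h2 by 1.70 ± 0.22 (adjusted p = 0.00592). In small-intestinal tumours 0 of 18 passed. None of the 18 passed in either ACKR2 comparison, where their medians were -0.22 in non-tumour tissue and -0.26 in tumours. The medians of the 5 fibrillar chains in the same comparisons were -0.95 and -1.42; the difference between the lists was not tested.

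Of 26 further glycoproteins and proteoglycans of the matrix, 12 rose in non-tumour colon and 9 in colon tumours against small-intestinal tumours, and 0 fell in either. Thbs4, a thrombospondin of muscle and tendon, had the widest value in non-tumour tissue, 6.51 ± 0.28, and 4.28 ± 0.28 in tumours, and versican (Vcan) rose by 2.47 ± 0.29 and 2.17 ± 0.29. In colon tumours 1 rose and 9 fell, led by tenascin X (Tnxb, -3.53 ± 0.33) and asporin (Aspn, -2.69 ± 0.29). In small-intestinal tumours 6 fell, led by osteoglycin (Ogn, -2.69 ± 0.19) and Aspn (-2.39 ± 0.29). None of the 26 passed in the ACKR2 comparisons, with medians of -0.16 and -0.64. Of 11 other collagens 4 rose in non-tumour colon, led by Col8a1 (2.64 ± 0.32), and 3 fell in colon tumours, led by the basement membrane chain Col4a5 (-2.38 ± 0.35). Of 10 other laminins and basement membrane genes, Lama3, a laminin chain of epithelial basement membranes, rose in tumours of both tissues, by 0.997 ± 0.215 and 1.13 ± 0.21, whereas the heparan sulfate proteoglycan Hspg2 fell in colon tumours by 0.90 ± 0.22.

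Among 21 matrix receptors, the hyaluronan receptor Cd44 rose in tumours of both tissues, by 2.39 ± 0.15, adjusted p = 0.00108 and 1.89 ± 0.15, adjusted p = 0.00415. In colon tumours 4 receptors rose and 7 fell, among them Itga8 (-2.88 ± 0.36) and Itga5 (-2.21 ± 0.36), integrin chains that pair into fibronectin receptors. In small-intestinal tumours 1 rose and 0 fell. Syndecan 4 (Sdc4) fell in ACKR2-/- non-tumour tissue by 1.47 ± 0.14 (adjusted p = 0.0378) and was the only receptor that passed in an ACKR2 comparison. Of 12 genes of TGF-beta signalling, which drives matrix production, 1 rose and 2 fell in colon tumours (11.0% and 12.6% of all genes). Inhba rose by 2.11 ± 0.29, and Tgfbr3 and Tgfb3 fell by 2.44 ± 0.18 and 1.80 ± 0.25. In small-intestinal tumours Tgfbr2 rose by 1.06 ± 0.16 and Tgfbr3 fell by 1.17 ± 0.18, and 0 of 12 passed in the ACKR2 comparisons.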

How the data were processed

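Each of 8 groups was 1 Affymetrix array of pooled RNA. The authors deposited linear signal intensity per probe set, computed with MAS5 and Partek per the submitters' processing notes, without versions; each array had a mean of 500.0 after trimming 2% at each end. The 45101 probe sets were named through the platform annotation: 34945 had 1 gene, 932 several and 9160 none, beside 64 control probe sets, and unnamed or shared ones were left out. Values below the floor of 64.1 were set to it and log2 was taken. Of 18193 genes, 14023 lay above the floor on at least 2 arrays and were tested with limma 3.58.1 in R 4.3.3 (lmFit, eBayes with trend, prior degrees of freedom 4.16, median SD 0.22 log2). The number of arrays limits the precision. The members and lists were chosen with earlier results of these data known. Genes named with values were, per comparison and role, up to 4 that passed and 2 that did not with the widest differences, and up to 3 per further list. Alternatives changed the floor, filter, scaling, probe sets, variance model, ACKR2 term and arrays.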

Additional observations from a re-analysis of the deposited data

How the results depend on the processing

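No paired analysis by replicate was possible because the labels give no replicate numbers to serve as a block, and each group is 1 array. The model took the ACKR2 differences within each tissue and tumour status. Arrays matched by tissue, genotype and tumour status are also compared as pairs in the report. Counts of genes that passed went to 0 in every comparison that could be fitted with genes of low signal kept, with any 1 array left out (lowest 0, highest 0), without both WT arrays and without both ACKR2-/-ApcMin/+ arrays, where 1 residual degree of freedom remains. Colon against small intestine otherwise gave 23 to 31 genes in non-tumour tissue (29 reported) and 20 to 25 in tumours (24 reported). In colon tumours 5 genes rose, not 3, with the floor at the 60th percentile. In small-intestinal tumours 6 genes passed, not 4, with no floor or with genes above the floor on all 8 arrays, and 2 of them rose, not 1. The number that fell, 3 as reported, was 6 with arrays centred on the median and 1 with a single ACKR2 difference. The ACKR2 counts moved most. In non-tumour tissue the number lower, 1 as reported, was 4 with no floor, 9 with genes above the floor on all 8 arrays, 5 with arrays centred on the median (which also called 1 gene higher), 18 with a single ACKR2 difference, and 0 with quantile normalization, with the mean of all probe sets and without the variance trend. In tumours the number lower, 0 as reported, was 5, 10, 3 and 18 under the first 4 of these settings. Over all genes the calls in non-tumour tissue rose with them, from 96 to 427 with no floor, 851 with genes above the floor on all 8 arrays, 678 with arrays centred and 806 with a single ACKR2 difference, and in tumours from 5 to 41, 82, 20 and 806. With the floor at the 60th percentile 1 gene was lower in non-tumour tissue, but not the one reported. The cause was not tested. Centring on the median moved the median of all genes from -0.02 to 0.12 in the non-tumour ACKR2 comparison and from -0.03 to 0.11 in tumours; the medians of the 38 genes were then -0.56 and -0.99. No difference of a gene that passed changed its sign under any of these settings.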

Other observations

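Other probe sets of the same genes gave a second reading. Of the probe sets not used above, 38, of 27 genes, lay above the floor on at least 2 arrays. Their difference had the sign of the reported one for 37 of 38 probe sets in non-tumour colon against small intestine, for 32 in tumours, for 31 and 35 in colon and small-intestinal tumours against non-tumour tissue, and for 36 and 31 in the ACKR2 comparisons of non-tumour tissue and tumours. Some of the rest stood at the floor on all tumour arrays, as for Dcn, Lama4 and Lamc1, and had a difference of 0 in tumours. Thbs2 was read by 3 probe sets, and their ACKR2 differences in tumours were -0.38, 0.05 and 0.59, whereas their tissue differences in tumours were 3.13, 3.16 and 2.57. Fbln1 was also read by 3 probe sets, with differences of -0.54, 0.52 and -0.09 between non-tumour colon and small intestine. A second Sparc probe set gave -1.82 in the ACKR2 comparison of tumours beside the reported -1.78, and the other one, of mean signal 89.3, gave 0.37.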
